A study of Mus musculus with 4 samples.

Results

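The killer lectin-like receptors described here are the 10 genes Klra3, Klra4, Klra7, Klra8, Klra9, Klrb1c, Klre1, Klrg1, Klrk1 and Klrd1, matched by symbol among 31054 features measured in single lung cells. All 10 were found in all 4 libraries, beside 16 other genes whose symbols start with Klr. The set was chosen by names and by measured values of these libraries, namely the levels of Klra4 and Klra9 in T cells of the BPTES and DMSO libraries. Those differences are therefore given as a description, without a test.

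The study compared lungs of male C57BL/6 mice aged 19 months that received BPTES, a small-molecule inhibitor of the glutaminase GLS1, for 1 month, with lungs of mice of the same strain, sex and age that received DMSO, the vehicle. Each group had 2 libraries. Lungs were dissociated with Liberase and sorted by CD45, a surface marker of blood-derived cells. For each library, 20000 CD45-negative cells were pooled with 9000 CD45-positive cells. The sort thus set the mix of CD45-negative and CD45-positive cells, and so in part the share of lymphocytes among all cells. The labels give no further genotype and do not say how many animals stand behind a library, so the p-values below measure the spread between these libraries, which may be technical.

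Killer lectin-like receptors are C-type lectin-like proteins by which natural killer (NK) cells and some T cells read other cells. The Ly49 family, encoded by Klra genes, mostly binds MHC class I: Klra3 (Ly49C), Klra7 (Ly49G) and Klra9 (Ly49I) carry inhibitory tails, while Klra4 (Ly49D) and Klra8 (Ly49H) signal through an activating adaptor. Each NK cell switches on its own combination of Ly49 genes, which then stays largely fixed. Klrd1 (CD94) pairs with Klrc proteins to read a non-classical class I molecule, Klrk1 (NKG2D) binds stress-induced ligands, and Klrb1c is the NK1.1 antigen of C57BL/6 mice. Klre1 pairs with Klri proteins, and Klrg1 is an inhibitory cadherin receptor of mature or repeatedly stimulated lymphocytes.

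All 10 genes lie on mouse chromosome 6 (GRCm38, GENCODE M21), in the NK gene complex or, for Klrg1, outside its core, within 8.07 Mb. The 5 Ly49 members occupy 0.294 Mb, from the start of Klra4 at chr6:130043731-130067271 through Klra8 at chr6:130115226-130129898, Klra9 at chr6:130178675-130193112 and Klra7 at chr6:130218605-130233322 to Klra3 at chr6:130323289-130337574, all on the minus strand. The first 60 coding bases of their transcripts are shown because they set Klra3 and Klra9, an inhibitory pair with opposite values in 1 CD8-like cluster below, beside the other members. Capitals mark bases that differ from Klra3, counted from 1 at the A of the start codon.
Klra3: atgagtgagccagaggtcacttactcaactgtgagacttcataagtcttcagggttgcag
Klra9: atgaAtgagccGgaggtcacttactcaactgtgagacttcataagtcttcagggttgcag
Klra7: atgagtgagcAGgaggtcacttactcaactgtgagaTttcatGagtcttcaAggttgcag
Klra4: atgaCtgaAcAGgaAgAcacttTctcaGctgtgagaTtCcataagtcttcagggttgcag
Klra8: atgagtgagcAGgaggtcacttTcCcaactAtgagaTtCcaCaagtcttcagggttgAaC
Klra9 differed from Klra3 at 2 of these 60 bases (G5A and A12G), Klra7 at 5, and Klra4 and Klra8 at 10 each. The activating genes Klra4 and Klra8 shared the substitutions A23T and T39C, which Klra7 and Klra9 lacked. Over the whole coding sequence, Klra3 and Klra9 were identical at 765 of 798 positions (95.9%), whereas the lowest identity among the 5 genes was 76.8%, between Klra3 and Klra4. Such likeness bears on the counting of 3' reads. Of the 411 windows of 90 bases in the last 500 bases of each transcript, 14.1% in Klra9, 10.2% in Klra7 and 8.5% in Klra3 were also found in another Klra gene, against 0 in Klra4 and Klra8. Values of Klra3, Klra7 and Klra9 are thus less certain, since reads from shared windows cannot be given to 1 gene.

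The promoter-proximal sequences of the Klra3 and Klra9 pair are shown because both genes were read in the same clusters below and had unlike values in some cell sets. They are the 250 bases before the annotated RefSeq start (GRCm38.p6, minus strand, written 5′ to 3′), at chr6:130337627-130337876 for Klra3 and chr6:130193113-130193362 for Klra9. Capitals mark bases that differ or have no partner in the alignment of the pair.
Klra3: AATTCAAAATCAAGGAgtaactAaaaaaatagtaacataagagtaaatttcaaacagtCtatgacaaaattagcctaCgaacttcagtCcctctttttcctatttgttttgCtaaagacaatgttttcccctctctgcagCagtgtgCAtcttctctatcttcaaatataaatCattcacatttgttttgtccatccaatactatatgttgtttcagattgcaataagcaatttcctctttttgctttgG
Klra9: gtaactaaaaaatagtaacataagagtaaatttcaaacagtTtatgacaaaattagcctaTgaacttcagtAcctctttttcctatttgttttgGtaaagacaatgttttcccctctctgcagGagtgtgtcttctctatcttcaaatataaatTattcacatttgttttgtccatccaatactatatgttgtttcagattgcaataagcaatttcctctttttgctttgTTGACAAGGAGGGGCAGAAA
The pair was identical at 97.0% of 231 aligned bases. By the same alignment, the corresponding sequences of Klra4 and Klra8 were 85.1% identical to each other over 249 aligned bases. Lower values depend on which bases the alignment placed together and are not compared between genes: Klra3 was 41.1% identical to Klra4 and 46.4% to Klra8, whereas its near copy Klra9 was 77.8% identical to Klra4 over 185 bases and 81.0% to Klra8 over 184.

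Of 63895 cells kept, 14407 to 18860 per library with median depths of 13958 to 15749 UMIs, 5069 were lymphocytes other than B cells. Clustering without any Klr gene gave 654 NK-like cells (129 to 201 per library) and 4143 T-like cells (800 to 1192 per library). Names rest on RNA: Ncr1 was read in 96.3% of the NK-like cells and Cd3e in 96.7% of the T-like cells. Within the T-like cells, 1805 were CD8-like (Cd8b1 in 92.7%), 774 CD4-like (Cd4 in 92.4%), 149 regulatory-like (Foxp3 in 91.9%) and 360 gamma-delta or type 17-like (Il23r in 97.5%), while 97 further cells were group 2 innate lymphoid (ILC2)-like (Il1rl1 in 91.8%). Some clusters took no name and are given by number. Cluster 18 stands apart: 41 of its 47 cells came from the BPTES 2 library, 4 from BPTES 1, 2 from DMSO 1 and none from DMSO 2, with Trdc in 85.1% and Ncr1 in 12.8% of them, and T-like values are given below with and without it. Between 57 and 93 barcodes were shared by each pair of libraries, but only 3 barcodes occurred in more than 1 library among the lymphocytes.

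Across the named lymphocyte subsets, 9 of the 10 receptors were highest in NK-like cells, and Klrg1 was about as high in ILC2-like cells. Single T-like clusters are not in this ranking. In BPTES 2, cluster 18 exceeded NK-like cells for Klra9, Klre1 and Klrk1. In both DMSO libraries CD8-like cluster 8 did so for Klrk1, as given below. Levels are UMIs of the gene per 1000000 UMIs of the subset (CPM), summed over the cells of a library, so they compare 1 gene across subsets and not genes with each other. They describe clusters built from the same cells, and carry no test. The NK-like level exceeded the T-like level by 3.38-fold for Klrk1 and 4.32-fold for Klrd1, the receptors shared most widely with T cells. It did so by 7.50-fold for Klra7, by 11.2-fold to 27.2-fold for Klre1, Klrg1, Klra9, Klra3 and Klrb1c, by 294-fold for Klra8 and by 2410-fold for Klra4.

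**Figure D1:**
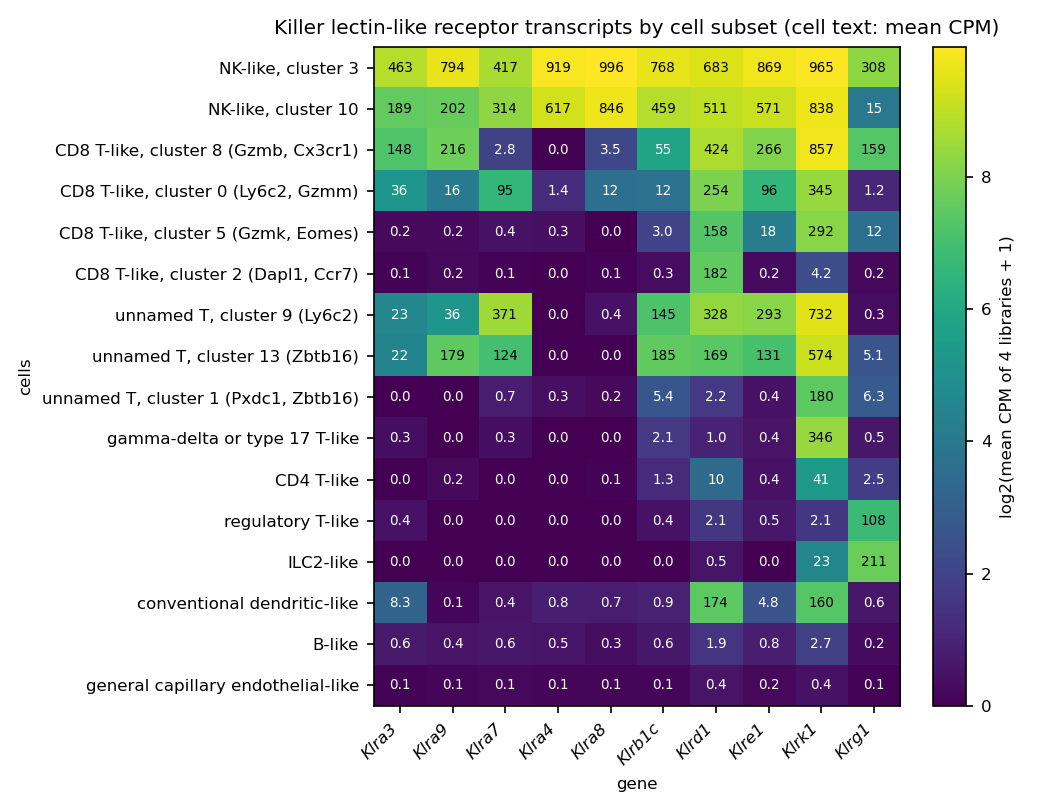
Heat map of the mean level of each receptor (columns) in cell clusters and classes (lines of the map); colour is log2(mean CPM of the 4 libraries + 1) and the printed figure the mean CPM itself. The NK-like clusters are bright for most genes, Klrk1 and Klrd1 extend into T-like and dendritic-like cells, and Klrg1 is bright in ILC2-like cells (211 CPM) and regulatory T-like cells (108 CPM).

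Among the inhibitory Ly49 members, Klra3 reached 359 ± 52.8 CPM (SD, n = 4) in NK-like cells and 15.1 ± 2.52 in T-like cells. Klra7 reached 380 ± 46.7 CPM and 50.7 ± 13.1 CPM in these classes, and Klra9 555 ± 68.4 and 28.1 ± 11.3. The T-like signal of these genes lay mainly in CD8-like and unnamed clusters, and in CD4-like cells no member other than Klrk1, Klrd1 and Klrg1 exceeded 1.32 CPM in this partition. At a clustering resolution of 0.5, CD4-like cells had 12.1 CPM of Klre1, 5.26 of Klra9 and 3.93 of Klra7, and resolution 2 gave nearly the same values. For Klra3 and Klra7, 0 of 774 CD4-like cells had a UMI, which allows a share of up to 0.388%, for counting error only.

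Activating Ly49 genes were nearly restricted to the NK-like class by count. Of 7703 Klra4 UMIs in all cells of the 4 libraries, 94.4% were in NK-like cells and 0.286% in T-like cells. For Klra8 these shares were 94.0% and 2.41% of 9090 UMIs. Klra4 averaged 788 ± 71.6 CPM in NK-like cells against 0.33 ± 0.23 in T-like cells (SD, n = 4), and Klra8 926 ± 77.5 against 3.16 ± 2.48. The inhibitory Klra9 and Klra7 were less tied to NK-like cells, which held 70.1% of 7347 Klra9 UMIs and 47.8% of those of Klra7, while T-like cells held 25.9% and 45.7%.

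The NKG2D gene Klrk1 was the member found in most T subsets. It averaged 917 ± 62.5 CPM in NK-like cells, 346 ± 87.7 in gamma-delta or type 17-like cells, 285 ± 81.7 in CD8-like cells, 41.2 ± 28.9 in CD4-like cells and 22.8 ± 31.3 in ILC2-like cells (SD, n = 4). The middle neighbours in that order, gamma-delta and CD8-like cells, lay within their spread, and so did CD4-like and ILC2-like cells. The place of ILC2-like cells depended on the partition, with Klrk1 at 271 ± 197 CPM when Klr genes were kept in the clustering and 273 ± 197 at resolution 0.5. In gamma-delta or type 17-like cells every other member stayed at or below 2.15 CPM. That named set is cluster 4 alone. Cluster 18, where most cells had a Trdc UMI, took no name and held further receptors, given below.

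Klrd1, the CD94 chain, followed a different order: 616 ± 80.2 CPM in NK-like cells, 233 ± 21.1 in CD8-like cells and 9.80 in CD4-like cells. Within the CD8-like cells it was already present in cluster 2, led by the naive-cell genes Dapl1 and Ccr7, at 182 ± 29.9 CPM and in 82.7% of cells, where no other member exceeded 4.2 CPM. Klrg1 extended beyond NK and T cells. Its level was 211 ± 36.5 CPM in ILC2-like cells, 191 ± 32.4 in NK-like cells and 108 ± 20.7 in regulatory T-like cells (SD, n = 4), against 17.4 in CD8-like and 2.50 in CD4-like cells. By library (BPTES 1, BPTES 2, DMSO 1, DMSO 2), regulatory T-like cells had 133, 109, 108 and 82.7 CPM, and ILC2-like cells 166, 204, 254 and 220 CPM. The ILC2-like and NK-like levels overlapped within their spread. In this partition no other member exceeded 2.10 CPM in regulatory T-like cells. At resolution 0.5, where the regulatory T-like cluster also had cycling genes such as Mki67 and Top2a among its leading genes, Klrk1 was at 142, Klre1 at 109, Klrd1 at 89.2, Klra4 at 56.9, Klra3 at 32.6 and Klrb1c at 30.7 CPM there.

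Outside lymphocytes, conventional dendritic-like cells also held 2 of the receptors. Their 943 cells, deeper than lymphocytes at a median of 33885 UMIs, held Klrd1 at 174 ± 31.7 CPM in 80.2% of cells and Klrk1 at 160 ± 32.2 CPM in 62.7% (SD, n = 4). Classes not known for these receptors give the background of stray UMIs. Shares of cells with a UMI ran from 0.0695% for Klrg1 to 1.04% for Klrd1 in 4316 B-like cells (median 11727.5 UMIs), and from 0.0657% to 0.519% in 15229 general capillary-like cells (median 12589 UMIs).

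Single NK-like cells carried many of the receptors at once. The median cell (13499 UMIs deep) had a UMI of 8 of the 10 members, or of 6 after each cell was thinned to 3000 UMIs, and 94.3% of cells had at least 5, while 7 cells (1.07%) had none. The members split by how many cells held them. Klrk1 was read in 98.6% ± 1.03 of NK-like cells, Klrb1c in 96.6% ± 1.40, Klrd1 in 96.2% ± 1.29 and Klre1 in 95.8% ± 0.928 (SD, n = 4), whereas Klrg1 and the Ly49 members were each read in between 48.6% (Klra4) and 62.4% (Klra9). After thinning, the first 4 stayed between 79.9% and 90.8% and the others fell between 33.8% (Klrg1) and 51.4% (Klra8). Klra4 was read in 48.6% of cells before and 46.9% after thinning, so depth changed its share little, whereas Klra7 went from 60.5% to 42.0%.

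Most NK-like cells held several of the 5 Ly49 members. Of the NK-like cells 8.41% had none of the 5 Ly49 members, 14.8% had 1, 13.9% had 2, 23.1% had 3, 28.0% had 4 and 11.8% had all 5. Among the 599 NK-like cells with any Ly49 member, 16.2% had just 1 and 68.6% had 3 or more. Among the 782 T-like cells with any (18.9% of the class, at a median depth of 15899 UMIs for all T-like cells), 73.5% had just 1 and 4.09% had 3 or more. Just 1 of the 5 was also the most frequent number in cluster 8 (80.5% of 149 positive cells), cluster 9 (75.0% of 196), cluster 18 (72.5% of 40) and cluster 0 (70.2% of 329), while in cluster 13 it was 50.0% of 38, with 15.8% at 3 or more. Other Klra genes were not counted here, among them Klra6 and Klra1, at 11.2 and 11.3 CPM in T-like cells and leading genes of cluster 9. In NK-like cells, pairs of Ly49 genes met about as often as the product of their shares or somewhat more often, as a description: the observed share divided by that product ran from 0.97 ± 0.0612 for Klra3 with Klra9 to 1.43 ± 0.116 for Klra4 with Klra8 (SD, n = 4).

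**Figure D2:**
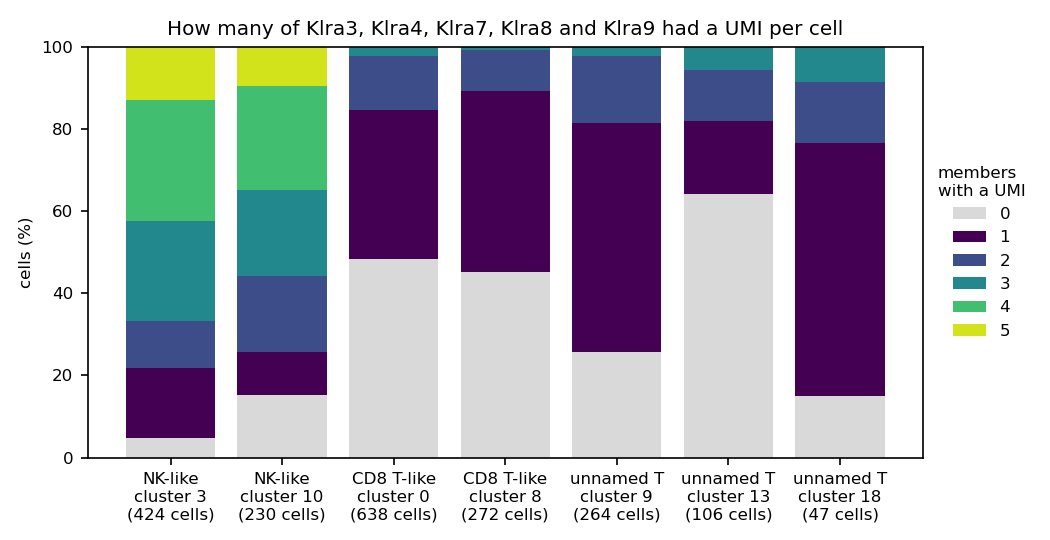
Stacked bars of the percent of cells (y axis) with a UMI of 0 to 5 of the Ly49 members, for NK-like and Ly49-carrying T-like clusters (x axis), cells of the 4 libraries pooled. Cells were not thinned. NK-like bars are mostly made of cells with several members, whereas in T-like cluster 8 80.5% of the positive cells have just 1.

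The UMIs of a member were spread over many NK-like cells. The richest 10% of positive cells held from 20.9% (Klre1) to 34.8% (Klra7) of a member's UMIs. In T-like cells the richest 10% held from 25.4% to 44.3%, with the highest values for Klra8 (44.3%) and Klra4 (40.9%), the members with the fewest positive T-like cells. For Klra9 this share was 32.6%.

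NK-like cells formed 2 clusters, and for 7 of the members every library was higher in the first than any was in the second (all but Klra7, Klra8 and Klrk1), as were 9.22% of 9552 genes. The clusters were made to differ, so nothing is read from these counts. Cluster 3 (424 cells) was led by Irf8 and the cytotoxic genes Gzma and Prf1, and cluster 10 (230 cells) by Car2 and the chemokine gene Xcl1. Klrg1, a maturation-linked receptor, was at 308 ± 24.5 CPM in cluster 3 and 15.02 ± 6.85 in cluster 10 (SD, n = 4), a ratio of 20.5. Klra9 was at 794 ± 32.4 and 202 ± 63.3 CPM, a ratio of 3.93, and Klra3 at 463 ± 33.6 and 189 ± 62.4 CPM, a ratio of 2.46. The other 7 members had ratios from 1.15 (Klrk1) to 1.67 (Klrb1c). Of the Ly49 genes, the highly alike Klra3 and Klra9 thus differed most between the NK-like clusters, and Klra8 (1.18) least. Cluster 3 made up 61.2% of NK-like cells in BPTES 1, 53.5% in BPTES 2, 65.2% in DMSO 1 and 77.8% in DMSO 2.

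BPTES was compared with DMSO in NK-like cells, to ask whether receptor levels on these cells followed treatment. No member passed edgeR's quasi-likelihood test with Benjamini-Hochberg adjustment over 9552 genes, where 0.0% of all genes passed (0 genes, with 791 genes, 8.28%, at an unadjusted p under 0.05, and 4 genes, 0.0419%, passing in DESeq2, none of them a member). A block for the replicate number gave 24 genes (0.251%) and leaving out the filter on low counts 161 genes (0.943%), again none of them a member. Unadjusted, 3 of the 10 members were under 0.05, namely Klra9, Klrb1c and Klra3, all lower with BPTES. The median log2 fold change of the 10 was -0.15, against 0.00 over all genes, and 7 of 10 were below 0, against 49.9% of all genes. In 5 members both BPTES libraries lay below both DMSO libraries, as did 19.9% of all genes, and in none did both lie above (19.4% of all genes).

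Klra9 gave the smallest p of the members. Its NK-like levels were 487, 506, 598 and 628 CPM in BPTES 1, BPTES 2, DMSO 1 and DMSO 2. The BPTES libraries lay below both DMSO libraries. The log2 fold change was -0.30 (SE 0.0916), with an adjusted p of 0.386 in edgeR (range over the members 0.386 to 0.976, and for Klra9 over 16 alternatives 0.192 to 0.9997). The share of cells in cluster 3, where Klra9 was higher, was also lower in both BPTES libraries. Within cluster 3 Klra9 was at 800, 807, 821 and 747 CPM, so the groups overlapped there, and within cluster 10 it was at 109, 238, 217 and 245 CPM, overlapping as well. The part of the cluster shares in the difference was not tested.

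Klra3 was at 366, 283, 392 and 396 CPM, lowest in BPTES 2 (log2 fold change -0.28, SE 0.117). Klrb1c, the NK1.1 antigen, was at 647, 515, 682 and 717 CPM, and Klrd1 at 638, 500, 643 and 684 CPM, again lowest in BPTES 2. Their log2 fold changes were -0.27 (SE 0.108) and -0.22 (SE 0.112). In Klrd1 the BPTES 1 and DMSO 1 libraries were nearly level. The size of all 3 changes rested on BPTES 2: without it they were -0.11 for Klra3, -0.11 for Klrb1c and -0.06 for Klrd1, and without BPTES 1 -0.46, -0.42 and -0.39. Klre1 lay at 714, 738, 750 and 786 CPM, a log2 fold change of -0.08 (SE 0.0889).

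Groups overlapped for the other 5 members. Klrg1 was at 191, 159, 179 and 236 CPM (log2 fold change -0.24, SE 0.138, and -0.03 without DMSO 2), and Klra7 at 423, 317, 375 and 405 CPM (-0.08, SE 0.124). The activating members Klra4, at 741, 881, 807 and 724 CPM, and Klra8, at 879, 1013, 968 and 845 CPM, had log2 fold changes of 0.09 (SE 0.107) and 0.07 (SE 0.105). Klrk1 was at 983, 859, 957 and 868 CPM (0.02, SE 0.0971). Leaving out 1 library at a time turned the sign of Klra4, Klra7, Klra8 and Klrk1 but not of the other 6.

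**Figure D3:**
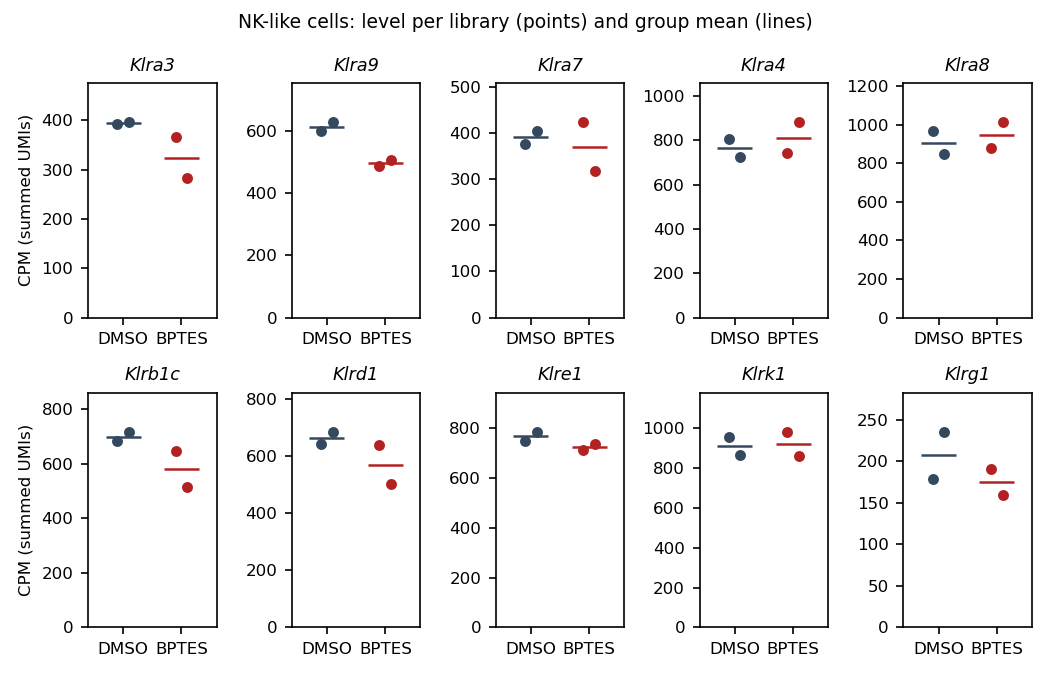
Levels of the 10 receptors in NK-like cells by library, in CPM; points are libraries, coloured by treatment, and lines the group means. Klra9 is the member with the smallest p, with BPTES at 487 and 506 and DMSO at 598 and 628; none passed the adjusted test.

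Shares of NK-like cells with a UMI, after thinning to 3000 UMIs, did not overlap between groups for 5 members (35.2% of 9552 genes did not, in either direction), each with an exact two-sided permutation p of 0.33, the smallest that 2 against 2 libraries can give. The widest gap was that of Klrb1c, at 79.5% and 70.7% with BPTES and 82.7% and 86.5% with DMSO, a difference of -9.51 percentage points. Klrg1 differed by -4.84, Klre1 by -3.88 and Klra3 by -3.79 points, and Klrk1 by 2.32 points. The members depended on depth. Not thinned, Klra3, Klra7 and Klra8 did not overlap (39.1% of all genes did not), and Klrb1c overlapped with a difference of 0.73 points. At 1500 UMIs, Klra9, Klrb1c, Klre1, Klrk1 and Klrd1 did not overlap (34.2% of all genes), and Klre1 turned to a difference of 5.81 points, with 67.4% and 68.2% for BPTES and 58.7% and 65.3% for DMSO. Markers of other cells differed between libraries as well. In NK-like cells, 6 neutrophil markers summed to 27.3, 28.3, 54.5 and 59.9 CPM and 6 classical monocyte markers to 928, 892, 1094 and 1053 CPM, both lower in both BPTES libraries. Markers of alveolar type 2 cells summed to 350, 224, 77.5 and 171 CPM, higher in both BPTES libraries, and 8 T cell markers to 361, 296, 342 and 255 CPM, which overlapped. ILC2 markers summed to 396, 409, 352 and 301 CPM and 6 plasmacytoid dendritic cell markers to 174, 180, 128 and 158 CPM, both higher in both BPTES libraries. Basophil and mast cell markers summed to 0.535, 3.53, 228 and 4.77 CPM, with Mcpt8 at 0, and in DMSO 1 a single cell held 493 of 543 Cpa3 UMIs. Some of these lists hold genes that lymphocytes have themselves. The ILC2 list has Gata3, at 62.5 CPM in NK-like cells, and the classical monocyte list Ly6c2, a leading gene of T-like clusters 0 and 9. The sums are thus not all RNA of other cells. The part of such RNA in the receptor values was not tested.

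T-like cells are described by library, since this contrast was in view when the genes were chosen. Standard errors of fold changes in T-like cells and their subsets are part of this description and give no test. Of the 10 members, 7 had both BPTES libraries below both DMSO libraries (23.7% of all 13324 genes did), and all 9 members that could be fitted had log2 fold changes below 0 (50.8% of all genes were), with a median of -0.38. Without BPTES 1 the change of Klrg1 was 0.03. Klra4 had too few UMIs for the fit. In the T-like cells of BPTES 1, BPTES 2, DMSO 1 and DMSO 2 it had 1, 11, 6 and 4 UMIs, in 1, 4, 5 and 2 cells. These cells were 0.104% (exact 95% interval 0.00262% to 0.575%), 0.338% (0.0920% to 0.862%), 0.625% (0.203% to 1.45%) and 0.168% (0.0203% to 0.605%) of the class, with intervals that cover counting error only. B-like cells, which should lack Klra4, had a UMI in 0.162%, and general capillary-like cells in 0.131%. The share in BPTES 1 was below both of these, and the intervals of BPTES 1, BPTES 2 and DMSO 2 covered both. Klra4 in those libraries is therefore not told from background. Only the interval of DMSO 1 lay above both shares. In DMSO 1, 4 of the 5 positive cells had a single Klra4 UMI and none had more than 2. In BPTES 2 the 2 richest cells held 81.8% of the Klra4 UMIs. The B-like and capillary-like shares were pooled over libraries and came from shallower cells. Klra4 in DMSO 1 is thus not clearly above background either. No more than 5 Klra4 UMIs were found in 1 T-like cell. Of the 22 UMIs 18 were in cluster 0, a CD8-like cluster with Ly6c2 among its leading genes, and none of the Klra4-positive T-like cells had an Ncr1 UMI. In cluster 8, CD4-like and gamma-delta or type 17-like cells 0 of 272, 774 and 360 cells had one, which allows shares of up to 1.10%, 0.388% and 0.833%.

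Klra9 was carried by a minority of T-like cells, but not by a handful. Its UMIs numbered 212, 483, 440 and 768 in 45, 70, 74 and 105 T-like cells of BPTES 1, BPTES 2, DMSO 1 and DMSO 2. Those cells were 4.66% (exact 95% interval 3.42% to 6.18%), 5.91% (4.63% to 7.40%), 9.25% (7.33% to 11.5%) and 8.81% (7.26% to 10.6%) of the class, against 0.185% of B-like cells. These intervals cover counting error only and not the spread between libraries, and cells are not replicates of a treatment. The 2 richest cells of each library held 18.4%, 11.4%, 8.64% and 7.94% of the Klra9 UMIs, and no single cell held more than 31. The levels were 13.6, 25.5, 33.3 and 39.9 CPM, a log2 fold change of -0.88 (SE 0.257), which was -0.49 without BPTES 1 and -1.45 without BPTES 2. Both BPTES libraries were below both DMSO libraries, with BPTES 1 lowest.

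Cluster 18 and cluster 8 held much of this signal in different libraries. The 41 cells of cluster 18 in BPTES 2 held 65.0% of that library's Klra9 UMIs, 314 of 483, whereas DMSO 2 had no cell there. Without cluster 18, a setting added after seeing the data, Klra9 was at 11.2, 9.13, 32.3 and 39.9 CPM, and its log2 fold change was -1.82 (SE 0.143). Cluster 8 is a CD8-like cluster led by Gzmb, Cx3cr1 and Ccl5, genes of effector cells. It held 21.2%, 15.3%, 52.5% and 55.3% of the Klra9 UMIs of T-like cells and made up 3.93%, 3.97%, 8.88% and 9.73% of them. Without cluster 8 the levels were 11.0, 22.2, 16.9 and 19.1 CPM, and the groups overlapped. Without both clusters they were 8.59, 5.28, 15.8 and 19.1 CPM. Leaving out a cluster had to lower Klra9 in the libraries whose UMIs lay mostly there. Nothing is therefore read from the wider gap without cluster 18 or the overlap without cluster 8.

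**Figure D4:**
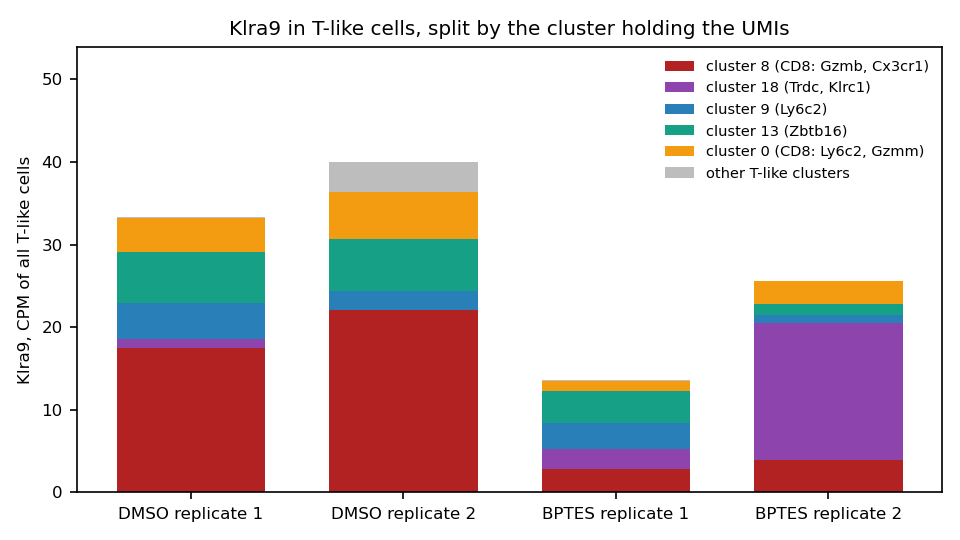
Klra9 UMIs of T-like cells by cluster in each library, as stacked levels in CPM of all T-like cells. Cluster 8 holds 52.5% and 55.3% of the Klra9 UMIs in the DMSO libraries, and cluster 18 holds 65.0% in BPTES 2.

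Within cluster 8 the very similar genes Klra9 and Klra3 ran in opposite directions between libraries. Klra9 was at 100, 142, 282 and 342 CPM in BPTES 1, BPTES 2, DMSO 1 and DMSO 2, in 23.7% (exact 95% interval 11.4% to 40.2%), 31.9% (19.1% to 47.1%), 53.5% (41.3% to 65.5%) and 40.5% (31.5% to 50.0%) of its 38, 47, 71 and 116 cells. Klra3 was at 158, 282, 91.5 and 58.7 CPM, in 34.2% (19.6% to 51.4%), 46.8% (32.1% to 61.9%), 14.1% (6.97% to 24.4%) and 7.76% (3.61% to 14.2%) of cells. The intervals cover counting error only, and cells are not replicates of a treatment. Klra9 was lower and Klra3 higher in both BPTES libraries, given without a test since T-like values had been in view. In this cluster 17.8% of all 13324 genes were lower in both BPTES libraries and 13.9% higher, and of the 3705 genes with a mean of at least 50 CPM there 671 (18.1%) were lower and 630 higher, so such a pattern in a single gene was common. Klre1 and Klrk1 were, like Klra9, lower in both BPTES libraries of this cluster. Klre1 was at 125, 227, 326 and 388 CPM, and Klrk1 at 690, 540, 1116 and 1084 CPM, in 71.1%, 61.7%, 90.1% and 92.2% of cells. Klrg1, like Klra3, was higher in both BPTES libraries, at 178, 163, 143 and 154 CPM. Groups overlapped for Klrd1 (361, 493, 403 and 440 CPM) and Klrb1c (53.4, 55.7, 57.3 and 55.5 CPM).

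**Figure D5:**
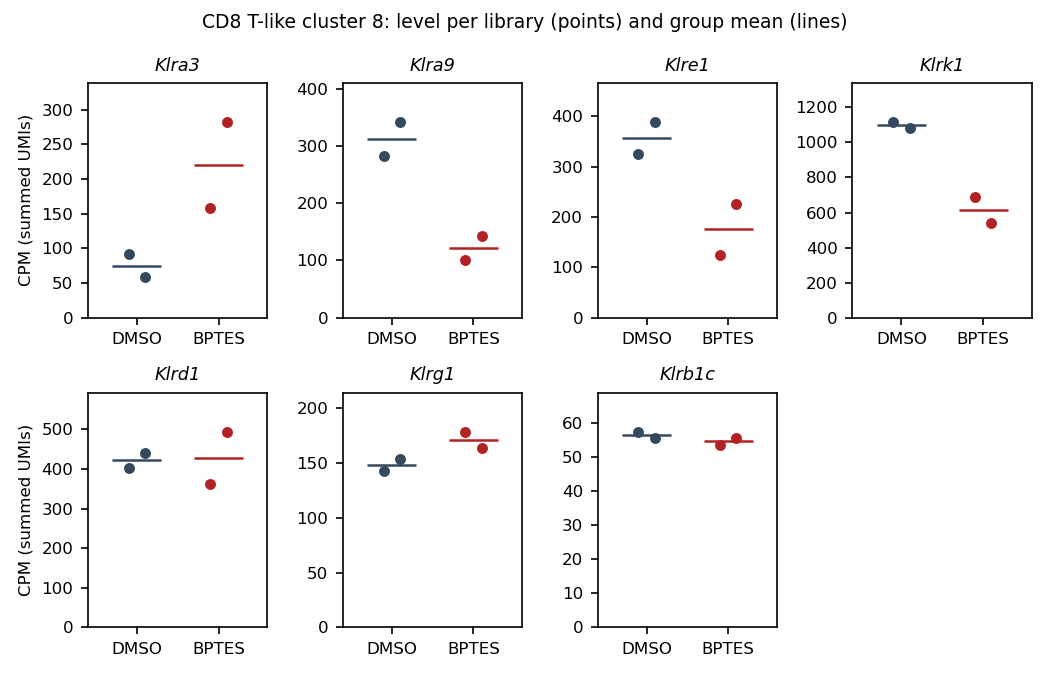
Levels of receptors in CD8-like cluster 8 by library, in CPM; points are libraries, coloured by treatment, and lines the group means. Klra9 was at 100 and 142 with BPTES and 282 and 342 with DMSO, while Klra3 was at 158 and 282 with BPTES and 91.5 and 58.7 with DMSO.

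The unnamed T-like clusters had their own receptors. Cluster 9 (264 cells, with Cd8a in part of them) was the T-like cluster of Klra7, at 371 ± 80.5 CPM (SD, n = 4) and in 68.6% of cells. Its other receptors included Klrk1 at 732 CPM, Klre1 at 293 CPM and Klrb1c at 145 CPM. CD8-like cluster 0 also carried Klra7, at 94.7 ± 19.1 CPM in 42.2% of cells. Cluster 13 (106 cells), with the innate-like T cell regulator Zbtb16 among its leading genes, held Klrb1c at 185 CPM in 76.4% of cells and Klra9 at 179 ± 87.1 CPM. In cluster 18 of BPTES 2, Klra9 was at 781 CPM, Klre1 at 878 CPM and Klrk1 at 1082 CPM, while Klra3 and Klra4 had no UMI in its 41 cells.

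Klra8 in T-like cells rested on few cells. It had 0, 54, 50 and 115 UMIs in 0, 15, 7 and 15 T-like cells of BPTES 1, BPTES 2, DMSO 1 and DMSO 2, and 0 of 966 cells allows a share of up to 0.311% in BPTES 1 by the limit of 3 counts, or 0.381% by the exact 95% interval. The 2 richest cells held 57.4%, 86.0% and 39.1% of the UMIs in the other libraries, in that order. Klra7 was at 49.7, 32.8, 63.4 and 56.6 CPM in T-like cells, lower in both BPTES libraries (log2 fold change -0.53, SE 0.162). That change was -0.83 without BPTES 1 and -0.28 without BPTES 2. Its level without cluster 18 was 49.7, 32.7, 61.8 and 56.6 CPM. The remaining members had log2 fold changes from -0.42 (Klrb1c) to -0.15 (Klrg1). With 1 library left out, Klrg1 ran from -0.36 without BPTES 2 to 0.03 without BPTES 1, and Klre1 from -0.65 without DMSO 1 to -0.03 without DMSO 2. Klrk1 was at 256, 240, 286 and 302 CPM, Klrd1 at 127, 122, 147 and 174 CPM, and Klre1 at 53.1, 62.2, 60.1 and 91.0 CPM, and of these 3 only Klre1 overlapped between groups. Without cluster 18 the groups no longer overlapped for Klre1, at 51.9, 44.5, 59.3 and 91.0 CPM, or for Klrg1, at 12.3, 11.1, 16.4 and 14.8 CPM (12.4, 15.8, 17.04 and 14.8 CPM with it). Without it 24.2% of all 13324 genes were lower in both BPTES libraries. The other members kept both BPTES libraries lower without it: Klrk1 at 254, 222, 285 and 302 CPM, Klrd1 at 127, 112, 147 and 174 CPM, Klrb1c at 21.0, 13.6, 28.7 and 24.7 CPM (21.2, 18.8, 29.5 and 24.7 CPM with it), Klra3 at 13.4, 13.3, 17.1 and 15.4 CPM (13.4, 13.1, 18.6 and 15.4 CPM with it) and Klra8 at 0, 2.32, 3.79 and 5.98 CPM (0, 2.85, 3.79 and 5.98 CPM with it). Cluster 18 held no Klra4 UMI. Without cluster 8 the groups overlapped for Klrk1, at 243, 231, 231 and 248 CPM, for Klre1, at 51.0, 57.5, 42.5 and 70.4 CPM, and for Klrg1, at 7.52, 11.6, 8.72 and 5.23 CPM, whereas Klrd1, Klra3, Klra7, Klra8 and Klrb1c kept lower values in both BPTES libraries (22.4% of all genes were lower in both). Without both clusters the same 3 members overlapped, with Klrk1 at 242, 212, 230.0 and 248 CPM, Klre1 at 49.7, 39.2, 41.7 and 70.4 CPM and Klrg1 at 7.34, 6.73, 8.01 and 5.23 CPM, and 22.9% of all genes were lower in both BPTES libraries. Markers of B cells summed to 20.2, 10.4, 19.3 and 20.8 CPM in T-like cells, those of NK cells to 1004, 1135, 1219 and 1282, and those of alveolar type 2 cells to 318, 229, 74.8 and 166. Neutrophil markers summed to 32.4, 30.7, 49.8 and 42.2 CPM and classical monocyte markers to 559, 529, 691 and 695 CPM, lower in both BPTES libraries. An Ncr1 UMI was present in 7, 5, 12 and 5 T-like cells. The NK list has Il2rb, at 331 CPM in T-like cells, and the classical monocyte list Ly6c2, a leading gene of T-like clusters 0 and 9. These sums thus include genes of the T-like cells themselves. The part of other cells and their RNA in the T-like values was not tested.

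Subsets of the T-like cells are given in the same library order. CD8-like cells were 33.4%, 40.8%, 43.3% and 54.8% of T-like cells. Klra9 was at 11.2, 14.9, 47.0 and 54.0 CPM there, a log2 fold change of -1.88 (SE 0.151). At a coarser clustering (resolution 0.5), where clusters 9 and 18 joined the CD8-like set and 62 cells of cluster 16 left it, it was -0.42. Cluster 16 held 68 Klra9 UMIs in DMSO 2 and 0 in each other library. Klrk1 was at 247, 191, 370 and 335 CPM and Klre1 at 48.7, 57.8, 84.6 and 107 CPM in CD8-like cells. Both BPTES libraries were the lower ones, as they were for Klra8, Klrb1c and Klrg1. Groups overlapped for Klra3, at 32.7, 27.6, 29.2 and 19.6 CPM (log2 fold change 0.38, SE 0.179). They also overlapped for Klra7 (-0.21), Klrd1 (-0.04) and Klra4, which was not fitted. Shares of all genes lower, or higher, in both BPTES libraries were not computed for CD8-like or CD4-like cells. Nothing is therefore read from which members did not overlap there. In CD4-like cells both BPTES libraries were the higher ones for Klrk1, at 80.9, 43.4, 15.6 and 24.7 CPM, and for Klrd1, at 21.3, 9.46, 2.61 and 5.81 CPM. Their log2 fold changes were 1.62 (SE 0.305) and 1.83 (SE 0.493). These directions depended on cluster 16 (64 cells, 43 of them in DMSO 2), which counted as CD8-like: in 3 other partitions (resolution 0.5, resolution 2 and seed 2) it joined the CD4-like cells, and Klrk1 was then at 0.07, 0.10 and 0.07 and Klrd1 at -0.98, -0.998 and -0.99. In CD4-like cells Klrg1 was also higher in both BPTES libraries, at 1.48, 8.15, 0 and 0.363 CPM. Klrb1c was lower in both there, at 0.889, 0.652, 1.56 and 2.18 CPM. Both were near the floor and not fitted. Gamma-delta or type 17-like cells had Klrk1 at 401, 377, 215 and 391 CPM, with DMSO 1 low and the groups overlapping.

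The partner and signalling genes of the receptors were read in the NK-like fit, from lists chosen with earlier results known. No gene of these lists passed edgeR's adjusted test. At an unadjusted p under 0.05, 4.06% of all 9552 genes were higher with BPTES and 4.22% lower, against which the counts below are to be set. Of 18 other Klr genes listed, 15 matched by symbol and 13 were tested, with 3 higher and 0 lower (Klrb1f, Klrc1 and Klra6) and a median log2 fold change of 0.17. Klri2, a partner of Klre1, was at 497 ± 54.4 CPM, and Klrc1 and Klrc2, partners of Klrd1, at 288 and 332 CPM in NK-like cells. All 17 adaptor and signalling genes were tested (0 higher, 1 lower, median -0.07), among them Tyrobp at 1527 ± 59.1 CPM, which encodes the adaptor of the activating Ly49 receptors. Of 16 ligand genes 9 were tested (0 higher, 1 lower, median -0.11), and B2m, the light chain of MHC class I, was at 2813 CPM.

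Of 14 other NK receptor genes 12 matched and were tested, with 3 higher and 1 lower (median -0.08), and of 16 transcription factor genes 15, with 2 higher and 2 lower (median 0.04). Irf8, the leading gene of cluster 3, was at 1190, 1162, 1486 and 1686 CPM, lower in both BPTES libraries. Of 16 effector genes 15 were tested, with 1 higher and 6 lower (median -0.15). Gzma, a granzyme gene, was at 6129, 4977, 7206 and 8269 CPM. Prf1, the gene of perforin, chosen after its values were seen, had a log2 fold change of -0.50 with an adjusted p of 0.154 in edgeR and 0.0422 in DESeq2, where it passed (range over 16 alternatives 7.72e-05 to 0.561). Cluster 3, led by Irf8, Gzma and Prf1, made up less of the NK-like cells in both BPTES libraries, as given above. The part of the cluster shares in the values of these genes was not tested.

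Over 48 clusters of lung cells, the genes whose pattern was most like the mean log2(CPM + 1) of the 10 members were Klri2 (Pearson r 0.95), Gm27194 (0.926), Klrc2 (0.924), Xcl1 (0.90) and Klra10 (0.899). These clusters share libraries and depth, so the values are a description.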

How the data were processed

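Lung cells of 4 libraries were measured as UMI counts, deposited by the authors as filtered gene-by-cell matrices, 1 per library, made with Cell Ranger 8.0.1 on mm10 per the submitters' processing notes. No value was normalized. The libraries held 260346570 to 342107092 UMIs. The members and all gene lists were chosen with earlier results of these data known.

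Barcodes under 500 genes or 1000 UMIs, or over 10% mitochondrial UMIs, were dropped, the highest-scoring doublets (Scrublet in scanpy 1.11.5, 0.4% per 1000 barcodes) too. Cells were clustered (2000 variable genes without Klr genes, 40 components, 15 neighbours, Leiden at resolution 1, igraph 0.11.9), and T and NK cells again with 30 components. Clusters were named from fixed markers (score at least 1.5), and T subsets by lineage genes in 50% of cells, a rule set after clusters were seen.

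UMIs were summed per library and class. NK-like sums were tested with edgeR 4.0.16 (R 4.3.3; filterByExpr, TMM, quasi-likelihood, Benjamini-Hochberg over all genes, threshold 0.05), with DESeq2 1.42.0 as an alternative; fits needed 50 cells per library. Shares were also computed after thinning each cell to 3000 UMIs, leaving out shallower cells. The fits were tested on simulated counts. Named genes are all 10 members, genes of 6 lists that passed, and up to 4 of the highest per list. Same-numbered libraries deviated together with r = 0.0406 in NK-like cells. The numbers were not taken as pairs, though this value cannot exclude a shared batch. Alternatives covered the filter, scaling, replicate block, partition, doublets, thinning and each library left out. The interval level was 95%. RefSeq and GENCODE M21 gave sequences. Protein sequences were not used here.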

Additional observations from a re-analysis of the deposited data

Results flagged for a closer look

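Klrk1 and Klrd1 were singled out because every library moved one way in CD4-like cells and the opposite way in 2 of the other classes. The T-like class contains the CD4-like and CD8-like cells, so these classes are not separate sets of cells. The log2 fold change of Klrk1 (BPTES against DMSO) was 1.62 in CD4-like cells, -0.23 in T-like cells as a whole and -0.64 in CD8-like cells. That of Klrd1 was 1.83 in CD4-like cells, -0.22 in NK-like cells and -0.35 in T-like cells. With 1 library left out, Klrk1 ran from 1.14 to 1.98, -0.28 to -0.18 and -0.81 to -0.48 in its 3 classes. Klrd1 then ran from 1.16 to 2.54, -0.39 to -0.06 and -0.47 to -0.22 in the order given. In the remaining classes the groups overlapped: Klrk1 was at 0.02 in NK-like and 0.36 in gamma-delta or type 17-like cells, and Klrd1 at -0.04 in CD8-like cells and near 0 CPM in gamma-delta or type 17-like cells, where it could not be fitted. The difference between classes was not tested. The CD4-like values lost their size or turned at the 3 partitions in which cluster 16 joined the CD4-like cells, where Klrk1 was at 0.07, 0.10 and 0.07 and Klrd1 at -0.98, -0.998 and -0.99.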

How the results depend on the processing

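Of 110 alternative values of the main results, 99 stayed and 11 moved, by a limit of 1 SD between libraries or, for counts, 1.5 times. For single members 555 stayed and 43 moved. Fold changes of single members in NK-like cells counted as stayed unless a member passed the adjusted test. None did, so they stayed by rule, the turned signs given above included. Some alternatives, such as resolution 2 for NK-like cells, left the cells unchanged. These tallies therefore do not measure robustness. No member passed in NK-like cells under any alternative, DESeq2 and each library left out included (0 to 0). List genes called in NK-like cells numbered 0 in edgeR, 1 in DESeq2, 9 without a filter on low counts, and 0 to 2 with a library left out (Gzmb without BPTES 1, Gzma without DMSO 1, Klra5 and Cd226 without DMSO 2). Over all genes, calls numbered 0, 4 in DESeq2, 161 without a filter and 24 with the replicate block, which called 0 members. The 2 numbered pairs correlated at 0.0406 in NK-like and 0.0273 in T-like cells. A single value over all genes cannot exclude a batch shared by same-numbered libraries, which was not tested. The median member change in CD8-like cells was -0.68 and went to -0.17 at resolution 0.5. In CD4-like cells (Klrk1 and Klrd1 fitted) it was 1.72 and changed sign to -0.46, -0.45 and -0.46 at resolution 0.5, resolution 2 and seed 2. With a library left out it ran from 1.15 to 2.26 in CD4-like cells, from -0.81 to -0.48 in CD8-like cells, from 0.00663 to 0.85 in gamma-delta or type 17-like cells (Klrk1 alone fitted) and from -0.47 to -0.35 in T-like cells. Members whose NK-like shares did not overlap numbered 5 thinned to 3000 UMIs, 3 not thinned and 5 at 1500 UMIs, and they were not the same members. The number of members highest in NK-like cells was 9, or 10 with Klr genes kept among the variable genes or at resolution 0.5. Settings without cluster 18, without cluster 8, without both and without Ncr1-positive T-like cells were added after seeing the data. Leaving out cells with UMIs of other lineages was not run, since too few cells remained. In BPTES 1, BPTES 2, DMSO 1 and DMSO 2, 0, 15, 129 and 49 NK-like cells were left. T-like cells left numbered 39, 113, 367 and 200. Both BPTES libraries kept the fewest, so UMIs of other lineages differed between the groups, and their part was not tested. Counting error is widest for Klra4 and Klra8 in T-like cells, where libraries had 0 to 15 positive cells.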
